A study of Homo sapiens with 4 samples.

Results

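Endosomal SNAREs were compared between PC-3, a human prostate cancer cell line, and PC-3-BM, a derivative that colonises bone more efficiently. The 10 genes examined were VTI1A, VTI1B, STX6, STX7, STX8, STX12, VAMP3, VAMP4, VAMP7 and VAMP8. They were matched to every probe set whose platform annotation holds one of these symbols, which gave 12 of the 33297 probe sets, or 10 of the 18417 genes that had a probe set of their own. Of these probe sets, 0 were annotated to several genes. The group was chosen from the family with VTI1B in view, because VTI1B had been named by the study as a target of the microRNA miR-135b and its values on these arrays were already known. The values of VTI1B are therefore given as a description with no test.

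The PC-3 arrays hold the parental line, which the labels give a poor metastatic potential. The PC-3-BM arrays hold cells with a high metastatic potential, recovered from bone lesions of nude mice after the third round of intracardiac injection, selected with geneticin and sorted for green fluorescent protein. Both lines carried luciferase and green fluorescent protein genes, and PC-3-BM is a single derived subline. Each line had 2 arrays. The labels mention growth in mice and the methods mention culture, and no source gives the arrays separate cultures. The p-values thus rest on the spread between arrays of a line, and that spread may be technical. Of the markers of epithelial cells, KRT8, KRT18 and EPCAM were all measured and all 3 fell in PC-3-BM, their summed level going from 11.87 to 11.97 in PC-3 to 10.79 to 10.94 in PC-3-BM on the log2 scale. Of 9 measured markers of blood, endothelial and bone-forming cells, 2 rose (PECAM1 and COL1A1) and 0 fell, and their summed level was 9.45 to 9.51 in PC-3 and 9.80 to 9.82 in PC-3-BM. COL1A1, the brightest of them, weighs most in that sum, with means of 8.16 in PC-3 and 8.84 in PC-3-BM. COL1A2, at 6.47 and 6.36, did not pass. KLK3 and CTNNA1, which PC-3 is known to lack or express weakly, did not pass, at a summed level of 6.49 to 6.50 in PC-3 and 6.56 to 6.60 in PC-3-BM. PTPRC and IBSP lay below the lower quartile of all values (5.02) on every array. The part of these shifts in the results below was not tested.

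SNARE proteins drive the fusion of vesicles with their target membranes. A fusion complex holds a helix of each of the classes Qa, Qb, Qc and R, named after a glutamine or an arginine at the centre of the bundle. In late endosomes and lysosomes VTI1B supplies the Qb helix beside STX7 as Qa and STX8 as Qc, with VAMP8 or VAMP7 as the R-SNARE. VTI1A supplies the Qb helix in transport from early endosomes to the trans-Golgi network, where STX6 is the Qc member and VAMP4 and VAMP3 act as R-SNAREs. STX12, also called syntaxin 13, is a Qa-SNARE of recycling endosomes. After fusion the complex is taken apart by NSF and its SNAP adaptors.

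The study reached VTI1B through miR-135b, so the microRNA and the primers used to follow VTI1B are shown. The first sequence is mature miR-135b, from RefSeq (GRCh38.p14, chr1:205448361-205448383, minus strand), with bases 2 to 8, the seed, in capitals. The others are the primers, each of 20 bases, of its RT-qPCR assay of VTI1B.
hsa-miR-135b-5p: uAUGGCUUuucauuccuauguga
VTI1b forward primer: ctaaggttctggcaggctgt
VTI1b reverse primer: ccccagattgaaaggttcag
The RT-qPCR values were not analysed here, and the positions of the seed match and of the primers in the VTI1B transcript were not determined here. The platform annotation gave 0 probe sets to the miR-135b gene.

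VTI1B, the late endosomal Qb-SNARE, was slightly lower in PC-3-BM on the only probe set annotated to it, while the probe set of its neighbour ARG2 was much higher. The VTI1B probe set (7979732) read 10.33 and 10.40 on the PC-3 arrays and 10.09 and 10.09 on the PC-3-BM arrays (RMA log2 values). Both PC-3 arrays were above both PC-3-BM arrays. This direction is opposite to the one given for VTI1B in the study. In the study's list of differentially expressed genes, VTI1B is named on the ARG2 probe set (7975268), described below. The study's RT-qPCR gave the same direction as that list, with VTI1B significantly higher in PC-3-BM. The study also reports that a miR-135b mimic lowered VTI1B in PC-3-BM cells and the activity of a VTI1B reporter. The array values given here do not test those assays. The means were 10.37 ± 0.05 and 10.09 ± 0.00 (SD, n = 2), a log2 difference of −0.27 (SE 0.07), or a level 1.21-fold lower in PC-3-BM. In a bulk lysate a lower value from fewer expressing cells and one from less RNA per cell cannot be told apart.

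The position of VTI1B bears on which probe set measures it. In GRCh38.p14 VTI1B lies on chromosome 14 from 67647085 to 67674632 on the minus strand, and ARG2, which encodes the mitochondrial arginase, lies from 67619920 to 67651708 on the plus strand. The ends of the genes face each other and their spans share 4624 bases, 16.8% of the VTI1B span. The study's annotation names the ARG2 probe set (7975268) for both ARG2 and VTI1B, whereas the platform annotation used here names it for ARG2 alone. That probe set read 6.99 and 6.97 in PC-3 and 9.75 and 9.51 in PC-3-BM. Its log2 difference was 2.65 (SE 0.10), opposite in direction to that of the VTI1B probe set. RDH11, a retinol dehydrogenase gene 2167 bases beyond the other end of VTI1B, read 11.35 and 11.32 in PC-3 and 11.76 and 11.73 in PC-3-BM, a log2 difference of 0.41 (SE 0.07). Thus VTI1B was lower in PC-3-BM between neighbours that were both higher. Where on the genome the probes of these probe sets lie was not determined here, so how far either one reads the shared stretch was not tested.

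**Figure D1:**
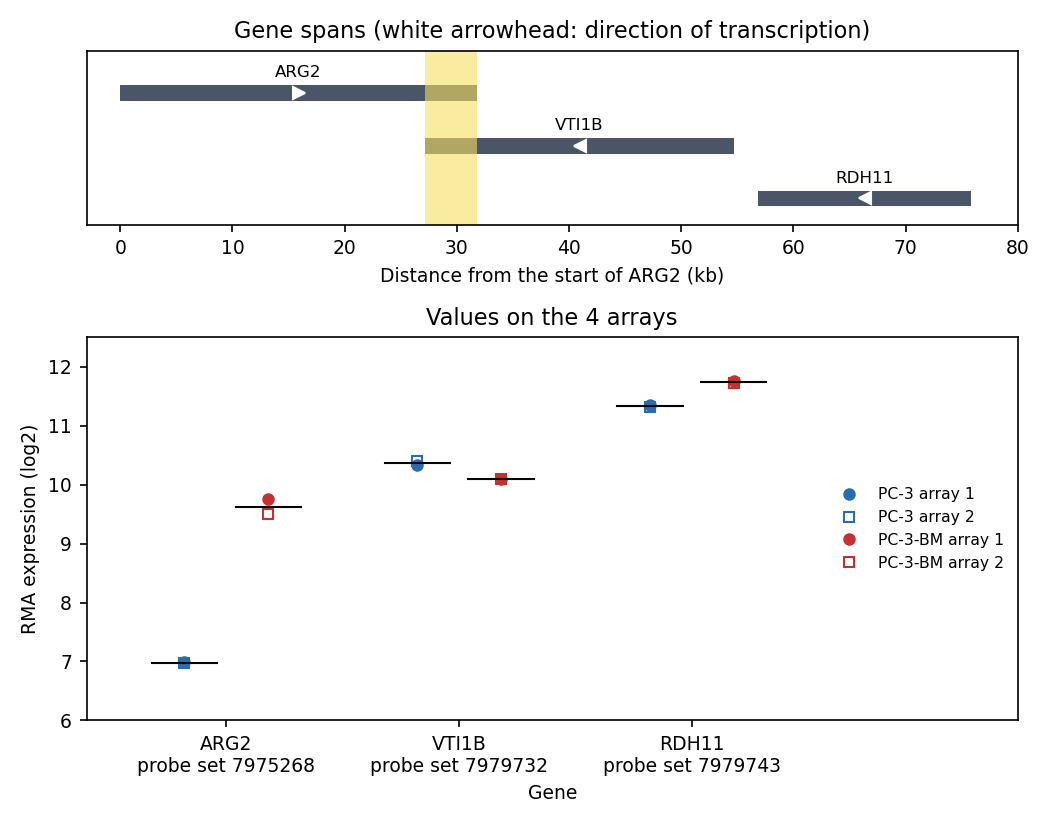
Gene spans of ARG2, VTI1B and RDH11 (upper panel, distance from the start of ARG2 in kb, shading over the stretch shared by ARG2 and VTI1B) and RMA log2 values of their probe sets on each array (lower panel, vertical axis). Blue marks are PC-3 arrays, red marks PC-3-BM arrays and short black lines their means. The ARG2 probe set moved from 6.98 to 9.63, whereas VTI1B was at 10.37 and 10.09.

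Of the 9 other SNARE genes, 4 changed in PC-3-BM. VTI1A, STX7 and STX8 rose and VAMP7 fell at a limma adjusted p below 0.05, where p-values were adjusted over all probe sets. In probe sets this is 5 of 11, with 3 higher and 2 lower, but the VAMP7 pair held the same values, so 4 of 10 distinct measurements passed. Over all probe sets 23.2% passed, 11.6% higher and 11.6% lower. Since dim probe sets seldom pass, a nearer background is that of genes by their brightest probe set, of which 29.6% passed, and 40% of those whose mean lay between 6.36 and 11.9, the range of the SNARE and pathway genes. The share among the SNAREs, 4 of 9 genes or 4 of 10 measurements, was near that background. The arrays of the lines did not overlap in 9 of the 10 distinct measurements, against 62.8% of all probe sets, dim ones included. The share without overlap among genes in that range of levels was not determined.

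**Figure D2:**
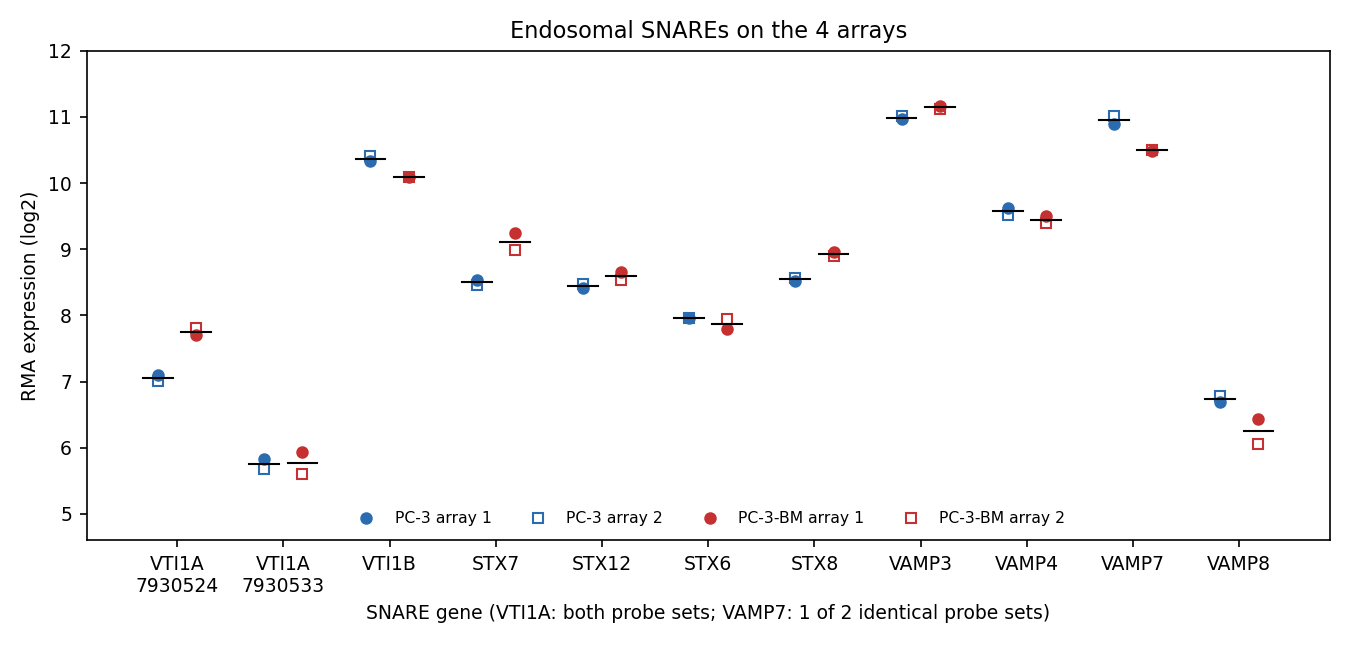
RMA expression (log2, vertical axis) of the endosomal SNAREs (horizontal axis) on the 4 arrays. Blue marks are PC-3 arrays, red marks PC-3-BM arrays and short black lines their means. The PC-3-BM arrays are higher for VTI1A (probe set 7930524), STX7 and STX8 and lower for VTI1B, VAMP7 and VAMP8. By smaller differences they are also higher for STX12 and VAMP3 and lower for STX6 and VAMP4.

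Among the partners of VTI1B, the Q-SNAREs STX7 and STX8 rose, and of the R-SNAREs VAMP7 fell while VAMP8 did not pass. STX7, the Qa-SNARE of the late endosomal complex, read 8.54 and 8.47 in PC-3 and 9.24 and 8.99 in PC-3-BM. It rose 1.53-fold, a log2 difference of 0.61 (SE 0.11, limma, adjusted p = 0.0187). The rise exceeded the gap between the PC-3-BM arrays, which was itself the wider of both lines. STX8, the Qc-SNARE of the same complex, read 8.52 and 8.56 in PC-3 and 8.96 and 8.90 in PC-3-BM. It rose 1.31-fold, a log2 difference of 0.39 (SE 0.07, limma, adjusted p = 0.0206), and the arrays of each line lay close together.

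VAMP7, an R-SNARE of late endosomes and lysosomes that also serves lysosome exocytosis, read 10.89 and 11.01 in PC-3 and 10.49 and 10.50 in PC-3-BM. It fell by 0.45 on the log2 scale (SE 0.08, limma, adjusted p = 0.0174), to a level 1.37-fold lower. Its probe sets, 8171041 and 8176962, held equal values on all 4 arrays and were taken as 1 measurement. VAMP7 lies in a pseudoautosomal region, which the X and Y chromosomes share. VAMP8, the R-SNARE of late endosome fusion, read 6.69 and 6.79 in PC-3 and 6.44 and 6.06 in PC-3-BM. Both PC-3-BM arrays were lower, but they differed from each other, and the difference of −0.49 (SE 0.14, limma, adjusted p = 0.0698) did not pass. It passed when only probe sets with a mean above 5 (limma, adjusted p = 0.0467) or with 1 gene symbol (limma, adjusted p = 0.0188) were tested, or without PC-3-BM array 1 (difference −0.68, limma, adjusted p = 0.0382). Without PC-3-BM array 2 the difference shrank to −0.30 (limma, adjusted p = 0.135). Over all its alternatives the adjusted p of VAMP8 ran from 0.0188 to 0.243.

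Among the SNAREs of early and recycling endosomes, VTI1A rose on 1 of its 2 probe sets, and the others did not pass. The first VTI1A probe set (7930524) read 7.10 and 7.01 in PC-3 and 7.70 and 7.80 in PC-3-BM. VTI1A, the Qb-SNARE closest to VTI1B, thus rose 1.62-fold, a log2 difference of 0.70 (SE 0.08, limma, adjusted p = 0.00648), which was the highest among the SNAREs examined. The second VTI1A probe set (7930533) read 5.83 and 5.67 in PC-3 and 5.94 and 5.60 in PC-3-BM, a difference of 0.02 with a 95% interval from −0.34 to 0.37. The lines overlapped on it, and the rise of VTI1A was thus seen on 1 probe set and not on the other, whose interval did not reach the first one's difference. The second probe set was the dimmer one, with means of 5.75 and 5.77, below the medians of the arrays (6.66 to 6.72). Whether it could register such a rise was not tested.

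STX6, the Qc-SNARE that pairs with VTI1A, read 7.95 and 7.96 in PC-3 and 7.79 and 7.95 in PC-3-BM, a difference of −0.09 (95% interval −0.31 to 0.13, limma, adjusted p = 0.503). STX12, the Qa-SNARE of recycling endosomes, read 8.42 and 8.47 in PC-3 and 8.66 and 8.54 in PC-3-BM, a difference of 0.16 (95% interval −0.05 to 0.36, limma, adjusted p = 0.228). Neither passed, and for both the lines were separated by less than 0.1 at their nearest arrays. VAMP4, an R-SNARE of the trans-Golgi network, read 9.63 and 9.51 in PC-3 and 9.50 and 9.39 in PC-3-BM, a difference of −0.13 (95% interval −0.34 to 0.09, limma, adjusted p = 0.349). VAMP3, also called cellubrevin, an R-SNARE of recycling endosomes, read 10.96 and 11.01 in PC-3 and 11.16 and 11.12 in PC-3-BM, a difference of 0.16 (95% interval −0.02 to 0.34, limma, adjusted p = 0.184). These 4 intervals hold no change above 0.36 in either direction, so changes of the size seen for VTI1A and STX7 lay outside them.

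**Figure D3:**
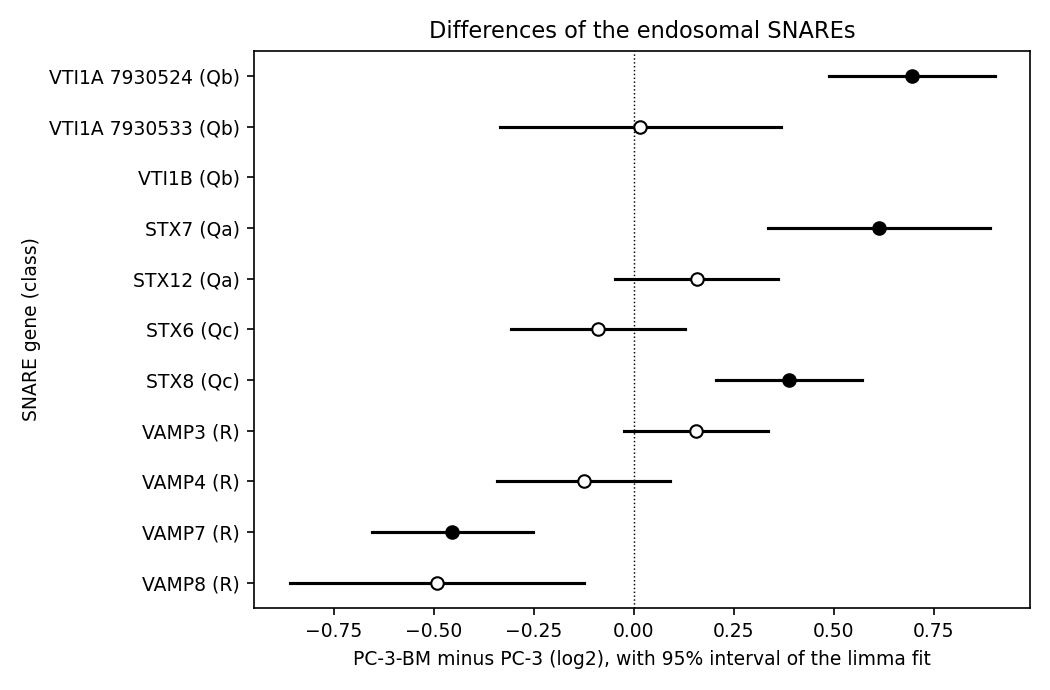
Difference between the lines, PC-3-BM minus PC-3 (log2, horizontal axis), for each SNARE gene with its class (vertical axis). Lines are 95% intervals of the limma fit and filled dots passed an adjusted p of 0.05. VTI1B was not tested, and its row holds no mark. The differences run from −0.49 for VAMP8 to 0.70 for VTI1A.

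The 4 calls rested on 2 arrays per line. Without PC-3 array 1, PC-3 array 2, PC-3-BM array 1 or PC-3-BM array 2 in turn, 1, 0, 2 and 2 of the 11 probe sets passed, and over all probe sets the count dropped from 7717 to between 2238 and 3854. The rise of VTI1A was lost without PC-3 array 2 (limma, adjusted p = 0.0539), that of STX7 was kept only without PC-3-BM array 2 (limma, adjusted p = 0.0302), and STX8 and VAMP7 passed in none of the 4 fits. The differences themselves kept their sign in each of these fits, from 0.64 to 0.75 for VTI1A, 0.49 to 0.74 for STX7, 0.36 to 0.42 for STX8 and −0.52 to −0.39 for VAMP7.

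The other genes of endosomal fusion also went both ways. Of 65 genes listed, 62 had a probe set of their own, and 16 of these rose, 8 fell and 38 did not pass. This is 38.7%, close to the 40% of genes in the same range of levels. The median difference of the 62 genes was 0.03, against −0.04 for genes in that range. Leaving out each array in turn, 2 to 6 of the 62 passed.

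Of 14 other SNAREs of endosomes and the Golgi apparatus, 3 rose and 3 fell, with a median difference of 0.01. SNAP47, a SNARE of the SNAP-25 family that carries Qb and Qc helices, went from 9.30 to 8.41 and so fell by 0.89 on the log2 scale (SE 0.08, limma, adjusted p = 0.00399). SNAP29, another member of that family, which acts in fusion of autophagosomes, fell by 0.45 (SE 0.08). The SNAREs of transport between endoplasmic reticulum and Golgi apparatus SEC22B and BET1 rose by 0.52 (SE 0.08) and 0.47 (SE 0.07). Of 5 plasma membrane SNAREs 2 rose and 1 fell. The vesicle SNAREs VAMP1 and VAMP2 moved apart, with VAMP1 higher by 0.53 (SE 0.07) and VAMP2 lower by 0.48 (SE 0.10), and the syntaxin STX2 rose by 0.36 (SE 0.07).

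Of the 4 genes of SNARE disassembly 2 rose and 0 fell. NAPA, which encodes alpha-SNAP, rose by 0.63 (SE 0.08, limma, adjusted p = 0.00726) and NAPG, which encodes gamma-SNAP, by 0.37 (SE 0.07). NSF, the ATPase that they recruit, was at 10.54 and 10.61 in PC-3 and 10.58 and 10.53 in PC-3-BM and did not pass. Of 17 Sec1/Munc18 proteins and tethers, which guide SNARE assembly, 3 rose, 1 fell and 13 did not pass. VPS41, a subunit of the HOPS tether of late endosomes, rose by 0.50 (SE 0.07), TGFBRAP1, a subunit of the CORVET tether of early endosomes, by 0.43 (SE 0.09) and VPS54, of the GARP tether, by 0.27 (SE 0.07). VIPAS39, the partner of VPS33B, fell by 0.59 (SE 0.07). VPS54 lost its call when the moderation used a trended and robust variance prior (limma, adjusted p = 0.0641).

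Of 11 endosomal Rab GTPases 1 rose and 1 fell, or 18.2%, against 40% of genes in the same range of levels. RAB4A, of rapid recycling, fell by 0.61 (SE 0.10) and RAB11B, of slow recycling, rose by 0.33 (SE 0.08). The share was the lowest of the lists, but it depended on the processing. RAB9A (limma, adjusted p = 0.0525) passed with a second quantile normalisation (limma, adjusted p = 0.043). With a trended and robust variance prior RAB9A, RAB5A and RAB14 passed, and so did more of the tethers. With the replicate number as a block RAB11B lost its call (limma, adjusted p = 0.0773). Of 7 measured adaptors that sort SNAREs into vesicles 4 rose, 1 fell and 2 did not pass, with a median difference of 0.30. Those that did not pass were CLINT1, with a difference of 0.03, and AP3S1, with 0.21 (limma, adjusted p = 0.785 and 0.161). PICALM, a clathrin adaptor that binds VAMP8 and VAMP3, rose by 0.57 (SE 0.08, limma, adjusted p = 0.0105). The AP-3 adaptor, which carries VAMP7, had subunits on both sides, with AP3B1 and AP3D1 higher by 0.42 (SE 0.08) and 0.37 (SE 0.08) and AP3M1 lower by 0.44 (SE 0.07). Of the 4 retromer genes, whose complex returns cargo from endosomes, VPS35 rose by 0.30 (SE 0.07) and VPS26B fell by 0.40 (SE 0.10). VPS26B lost its call with arrays centred on their medians and VPS35 with a second quantile normalisation (limma, adjusted p = 0.0693 and 0.0524).

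**Figure D4:**
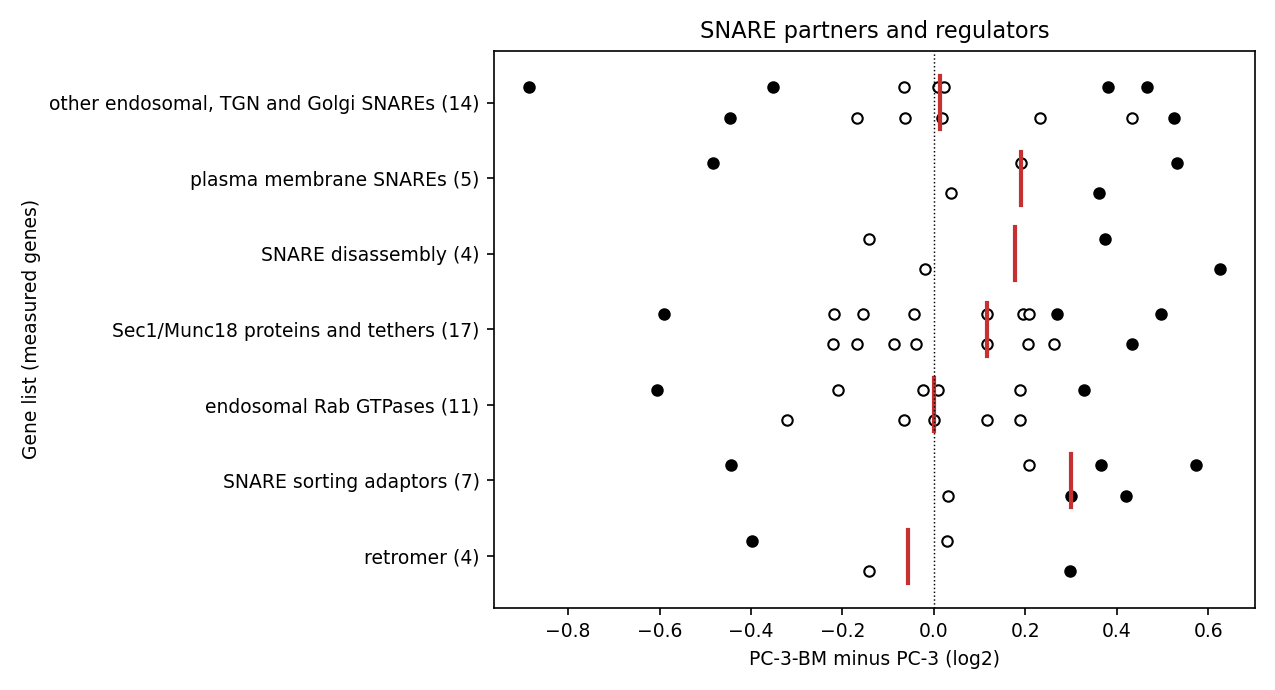
Difference between the lines, PC-3-BM minus PC-3 (log2, horizontal axis), for the genes of each list (vertical axis, number measured in parentheses). Each dot is a gene, filled where the limma adjusted p was below 0.05, and red bars are list medians. The dots run from −0.89 for SNAP47 to 0.63 for NAPA, and 6 of the 7 lists hold filled dots on both sides of 0.

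Of the 62 genes, those whose pattern over the 4 arrays lay nearest to that of VTI1B were RAB9A, VPS18 and GOSR1, at Euclidean distances of 0.07, 0.08 and 0.10 between log2 values centred on each gene's mean. RAB9A, a Rab GTPase of late endosomes, differed by −0.32, VPS18, a core subunit of HOPS and CORVET, by −0.22 and GOSR1, a Golgi SNARE, by −0.35. GOSR1 passed (limma, adjusted p = 0.0229), and RAB9A and VPS18 did not (limma, adjusted p = 0.0525 and 0.121). The measure rests on 4 arrays in 2 lines, which share the same RMA run. It mostly follows the difference between the lines. That the nearest genes were lower in PC-3-BM, like VTI1B, thus follows from how they were picked.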

How the data were processed

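Total RNA of PC-3 and PC-3-BM cells was labelled and hybridised to 4 Affymetrix Human Gene 1.0 ST arrays. Expression values were summarised on the log2 scale by the authors with RMA (robust multichip average), in which background is removed, arrays are brought to a common distribution and probes are summarised per probe set. Limma 3.24 and R 3.2 are given in the submitters' processing notes. All 33297 probe sets entered with their deposited log2 values and no filter. RMA removes a shift shared by all transcripts. Precision is limited by the number of arrays, and 2 against 2 cannot go below 0.333 in an exact permutation test.

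PC-3-BM was compared with PC-3 in limma 3.58.1 (R 4.3.3), by a linear model with empirical Bayes moderation with p-values adjusted by Benjamini-Hochberg over the whole table, tested on simulated data. Rose and fell mean an adjusted p below 0.05. Genes were named by the platform annotation, and positions came from RefSeq. Members and lists were chosen with earlier results of these data known. Named genes were all members, up to 4 called genes per list with the largest differences, VTI1B's neighbours and the 3 genes nearest to it. Genes of lists were represented by their brightest probe set of 1 symbol, and 3 listed genes had none. Array scaling, filters, moderation, a replicate block and leaving out arrays were tried as alternatives.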

Additional observations from a re-analysis of the deposited data

How the results depend on the processing

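The VTI1B difference of −0.27 was −0.24 with arrays centred on their medians and −0.31 to −0.24 with 1 array left out, and that of ARG2 ran from 2.53 to 2.77. RDH11 moved from 0.41 to 0.45 with centred arrays and was between 0.39 and 0.43 with 1 array left out. Under rescaling, filters or another variance prior 5 or 6 SNARE probe sets passed, and the endosomal fusion lists had 24 to 31 genes past the threshold. With 1 array left out, 0 to 2 SNARE probe sets, 2 to 6 list genes and 2238 to 3854 of all probe sets passed. Of 320 values of single genes over all alternatives, 222 kept their direction and side of the threshold, 93 lost their call (85 of them with 1 array left out) and 3 gained one. Those fits with 3 arrays hold 1 residual degree of freedom fewer and assume that the lone array varies like the other line. The second VTI1A probe set changed sign without PC-3 array 2 (−0.06) and without PC-3-BM array 1 (−0.15), and ran from −0.15 to 0.18 with 1 array left out. With arrays centred on their medians 4212 of all probe sets rose and 3254 fell.

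Arrays of the same number did not deviate together (correlation of deviations −0.02, 2 pairs). With so few arrays this cannot show whether they were prepared together. With the replicate number as a block, 6473 of all probe sets, 5 SNARE probe sets and 18 list genes passed, and 6 list genes lost their calls (VPS54, RAB11B, AGFG1, AP3D1, VPS26B and VPS35).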
